A study of Mus musculus with 3 samples.

Results

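Nrf2 ChIP-seq peaks were examined in windows set for 5 genes that regulate Nrf2 or act with it. The genes were Nfe2l2, which encodes Nrf2 itself, Keap1, Sqstm1, Mafg and Bach1. The members were chosen by position, as all peaks that overlapped a window of 120 to 160 kb set for each gene in the mm9 build, and the scores of the peaks were not used. The windows ran from 75.46 to 75.60 Mb on chromosome 2 (Nfe2l2), from 20.88 to 21.00 Mb on chromosome 9 (Keap1) and from 87.64 to 87.80 Mb on chromosome 16 (Bach1). On chromosome 11 they ran from 49.96 to 50.08 Mb (Sqstm1) and from 120.43 to 120.55 Mb (Mafg). Where the genes start, and whether each start lies inside its window, was not determined, for want of an mm9 annotation. No distance to a gene start is therefore given. These windows held 3 of the 2892 peaks listed for replicate 1 and 5 of the 3593 listed for replicate 2. The cells were wild-type C2C12, a mouse myoblast line that fuses into myotubes when serum is lowered. They had differentiated for 72 h and then received CDDO-Im, a synthetic triterpenoid activator of Nrf2, at 100 nmol/L for 3 h. The samples were 2 ChIP replicates made with an antibody against Nrf2 and 1 input, all from treated cells of 1 line, so no untreated level can be set beside these peaks. The reads of the input were not analysed here. Nothing in the labels states whether the replicates were separate cultures, and the depth behind each list is unknown. Peak lists hold no expression values, so the myotube state could not be checked against muscle markers.

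In unstressed cells Keap1 holds Nrf2 and serves as the adaptor through which a Cul3 ubiquitin ligase marks it for degradation. Electrophiles such as CDDO-Im modify cysteines of Keap1, and Nrf2 then accumulates and enters the nucleus. There it pairs with a small Maf protein such as MafG and binds antioxidant response elements, whose core is written TGACNNNGC, where N is any base. Sqstm1 encodes p62, an autophagy receptor that binds Keap1 and competes with Nrf2 for it. Bach1 is a haem-regulated repressor that pairs with the same small Maf proteins and occupies the same kind of element. Several of these genes are known as Nrf2 targets themselves, which closes feedback loops around the factor.

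The promoter sequences of the 5 genes are given by RefSeq in the GRCm38.p6 build, and all 5 were matched by symbol. They span 250 bases before to 50 bases after each gene start. A core TGACNNNGC, searched on both strands, was found in the promoters of Nfe2l2 and Mafg, 2 of the 5, and in 12.4% of all 32851 promoters of the table. Those promoters are shown because they carry the core, and that of Sqstm1 because its window held the highest-scoring peak of the 5 windows. Each is printed for the 250 bases before the gene start, on the strand of the gene, with the core in capitals. Their coordinates are in GRCm38.p6 and cannot be compared with the mm9 positions of the peaks.
Nfe2l2 promoter, chr2:75704664-75704913, minus strand: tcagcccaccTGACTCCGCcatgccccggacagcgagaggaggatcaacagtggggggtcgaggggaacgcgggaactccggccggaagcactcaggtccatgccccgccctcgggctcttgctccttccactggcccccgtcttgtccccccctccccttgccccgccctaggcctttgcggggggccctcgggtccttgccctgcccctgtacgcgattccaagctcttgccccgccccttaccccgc
Mafg promoter, chr11:120633548-120633797, minus strand: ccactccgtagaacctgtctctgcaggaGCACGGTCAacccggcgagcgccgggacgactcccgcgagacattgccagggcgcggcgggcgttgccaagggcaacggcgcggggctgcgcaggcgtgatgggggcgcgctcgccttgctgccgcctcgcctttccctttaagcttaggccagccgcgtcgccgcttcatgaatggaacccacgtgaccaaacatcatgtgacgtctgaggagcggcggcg
Sqstm1 promoter, chr11:50210821-50211070, minus strand: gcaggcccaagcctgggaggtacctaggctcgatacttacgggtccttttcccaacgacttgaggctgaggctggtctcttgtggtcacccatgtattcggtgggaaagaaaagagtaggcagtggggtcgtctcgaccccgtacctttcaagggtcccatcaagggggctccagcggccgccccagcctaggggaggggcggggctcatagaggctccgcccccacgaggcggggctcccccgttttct

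In the Nfe2l2 promoter the core read TGACTCCGC on the strand of the gene, from 240 to 232 bases before the start. In the Mafg promoter it lay on the opposite strand, from 222 to 214 bases before the start, and read there TGACCGTGC. The looser form TGANNNNGC, which contains the core, was found in the promoters of Nfe2l2, Keap1 and Mafg, and in 41.3% of all promoters. The Sqstm1 and Bach1 promoters had neither form in this stretch of 300 bases. A match is a run of letters and was not shown to be bound.

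A list of 13 regulators and partners of Nrf2 held 8 further genes, and 7 of these had a promoter in the table. They were the small Maf genes Maff and Mafk, the ligase subunits Cul3 and Rbx1, the repressor gene Bach2, the Nrf2 relative Nfe2l1 and the Nrf2 kinase gene Gsk3b. Btrc was the other gene of the list. The core was present for Maff and Mafk, 2 of the 7, against 14% of all 27025 genes with a match in any of their promoters. At Maff, which had 3 promoters in the table, it read TGACTCTGC on the strand of the gene, from 112 to 104 bases before 1 of the starts. The looser form TGANNNNGC matched in any promoter for 5 of the 7, against 45% of all genes. These were Maff, Mafk, Bach2, Nfe2l1 and Gsk3b, and Nfe2l1 had 5 promoters in the table. Peaks at these further genes were not examined, since no gene positions of the mm9 build were used.

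The Sqstm1 and Mafg windows each held 1 region that was listed in both replicates, while the Nfe2l2, Keap1 and Bach1 windows held a peak in 1 list only. A region was called shared when peaks of both lists had 1 bp or more in common. All 5 windows thus held a peak in at least 1 list, and 2 held a shared region. Of the 21768 tiles of 120 kb that cover chromosomes 1 to 19 and X, 11.6% held a peak in either list and 4.95% held a shared region. On the 4 chromosomes that carry the members these values were 11.1% and 3.78%. Tiles were laid without regard to genes, 2 of the windows were longer than a tile, and the genes were chosen with earlier results of these data known, so the shares give only the background. Replicate 1 had peaks in 3 of the 5 windows, against 6.62% of all tiles and 5.67% of those on the member chromosomes. Replicate 2 had peaks in 4 windows, against 10.3% and 9.5% of tiles.

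**Figure D1:**
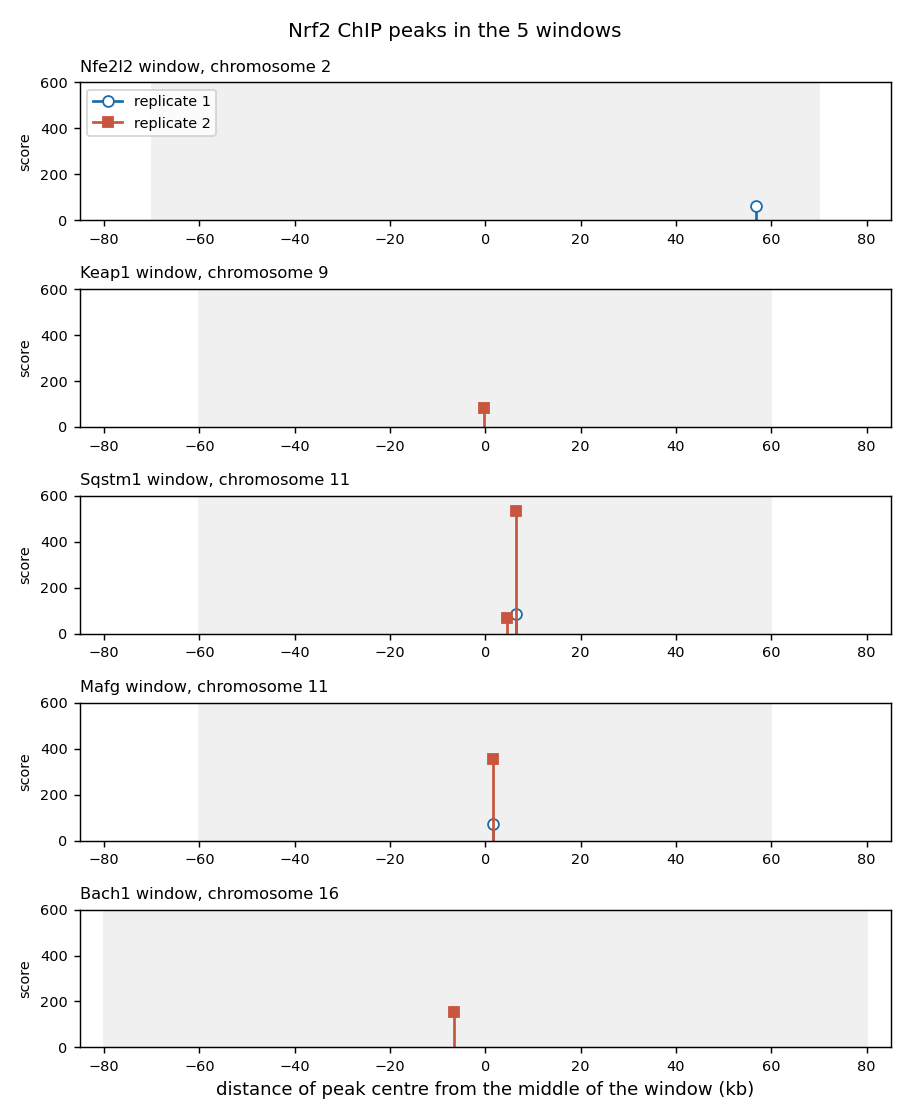
Each panel is 1 window (grey), with the distance of each peak centre from the middle of the window in kb on the horizontal axis and the authors' peak score on the vertical axis. Open circles are peaks of replicate 1 and filled squares peaks of replicate 2. At Sqstm1 and Mafg 1 marker of each replicate coincides in position, and Sqstm1 has a further, lower marker of replicate 2 only. The other 3 windows hold a marker of 1 replicate.

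The score of a peak is the authors' own value. It was read as the score of MACS 1.4, which is higher for peaks that the caller rates as less likely to arise from background, although no file header says so. The lowest scores were 50 in replicate 1 and 50.02 in replicate 2, and the medians 80.04 and 88.74. Scores and ranks describe a peak within its own list. They depend on depth, so the replicates' scores are set side by side and not compared as amounts of binding.

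In the window of Sqstm1, the gene of the Keap1-binding receptor p62, both replicates listed a peak at the same place on chromosome 11. The peak of replicate 1 spanned 50026157 to 50026732, which is 576 bp, and scored 87.10. That of replicate 2 spanned 50025937 to 50026889, which is 953 bp, and scored 534.81. The narrower peak lay wholly inside the wider one, and their centres were 31.5 bp apart. In replicate 2 this was the 150th of 3593 peaks by score and the 6th of the 106 on its chromosome. In replicate 1 it was the 1241st of 2892 and the 22nd of 36. The Sqstm1 region therefore stood near the top of 1 list and in the middle of the other.

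How often a high score in replicate 2 went with a low one in replicate 1 was counted over the shared regions. Of the 170 shared regions that reached 500 in replicate 2, the Sqstm1 region was 1 of 4 with a score below 100 in replicate 1, which is 2.35% (95% Wilson interval 0.919 to 5.89%). All 4 lay on chromosomes 2 to 19, where they were 2.8% of 143. The Sqstm1 region was close to the lower edge of this class, as 150th of the 170 in replicate 2, and in the class below it a score under 100 in replicate 1 was common. Ranked among the 1750 shared regions, the Sqstm1 region was 150th by its score in replicate 2 and 1013th by that in replicate 1. A rank lower in replicate 1 by at least this difference of 863 places was found for 92 regions, or 5.26%. That share is of all 1750, although only regions ranked high enough in replicate 2 can show such a difference. Among regions that could show it, the share is therefore larger. These counts were chosen after the scores had been seen, and the interval covers counting error only.

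Replicate 2 listed another peak in the Sqstm1 window, at 50024266 to 50024877, with a score of 67.11 and rank 2500. It was 612 bp wide, and 1059 bp separated it from the stronger peak. Replicate 1 had no peak there. Of all 1750 shared regions, 191 (10.9%) had such a peak, listed in replicate 2 only, within 2000 bp. On chromosomes 2 to 19 the share was 8.97% of 903 regions. In the GRCm38.p6 gene table the protein-coding genes next to Sqstm1 are Mrnip and Mgat4b. Which of these genes lies nearest to either peak was not determined.

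In the window of Mafg, the gene of a small Maf partner of Nrf2, both replicates again placed a peak at 1 site of chromosome 11. The peak of replicate 1 spanned 120491164 to 120491885 (722 bp) and scored 73.15. That of replicate 2 spanned 120491085 to 120491976 (892 bp) and scored 357.24. The first lay inside the second, and the centres were 6 bp apart, closer than in the Sqstm1 window. The peak was the 274th of its list in replicate 2, with 7.6% of the peaks scoring higher, and the 1650th in replicate 1, with 57.0% scoring higher. Among shared regions with a score from 200 to below 500 in replicate 2, the class of this peak, 173 of 427 (40.5%, 95% Wilson interval 36 to 45.2%) scored below 100 in replicate 1. On chromosomes 2 to 19 it was 152 of 308 (49.4%), so a low score in replicate 1 was common in this class. The difference between the ranks of the Mafg region among shared regions, which uses no score class, was 984 places, more than that of the Sqstm1 region. A difference of at least this size was found for 48 regions, 2.74% of all shared regions. Many of the shared regions ranked too low in replicate 2 to show it, so this share does not measure how unusual the Mafg region was among comparable regions.

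The Mafg window was the only 1 of the 5 with a further peak within 500 kb outside it. Both replicates listed it, replicate 1 at 120248496 to 120248942 (score 89.59) and replicate 2 at 120248372 to 120248924 (score 239.52). It lay 181.1 kb before the window and was not assigned to a gene. The protein-coding genes next to Mafg in the GRCm38.p6 table are Sirt7 and Pycr1.

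When the 1750 shared regions were ordered by the poorer of each region's ranks, the Sqstm1 region was 711th and the Mafg region 991st. On chromosome 11, which held 33 shared regions, they were 20th and 26th. The Sqstm1 region stood between a region at 70777522 to 70778234, with scores of 87.49 and 285.59, and one at 94471903 to 94472496, with 86.05 and 130.78. The Mafg region stood between those at 29532059 to 29532828 (73.64 and 334.51) and 57520684 to 57521417 (67.87 and 152.97). The first 3 regions of the series, on chromosomes 13, 4 and 8, scored from 1073 to 1855 in replicate 1 and from 2051 to 3100 in replicate 2. Both regulator regions were thus in the middle of this order, held there by their scores in replicate 1.

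**Figure D2:**
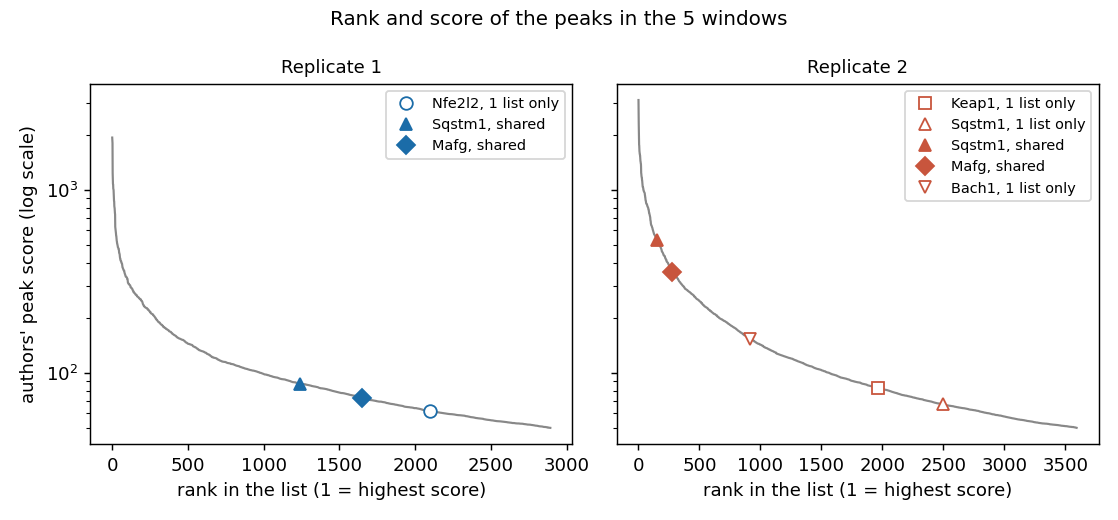
The authors' peak score (log scale) is plotted against the rank of each peak in its list, as a grey line for all peaks. Peaks of the 5 windows are marked by the gene for which the window was set. Filled markers are peaks with a partner in the other list. Sqstm1 (rank 150) and Mafg (rank 274) lie high on the curve of replicate 2, and all 3 marked peaks of replicate 1 score below 100.

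In the window of Nfe2l2, the gene of Nrf2 itself, a peak was listed in replicate 1 only. It spanned 75586628 to 75586967 on chromosome 2, was 340 bp wide and scored 61.88, the lowest score of the 8 member peaks. Of the peaks of its list, 72.5% scored higher and 26.4% were narrower. Its centre lay 126.8 kb from the start of the 140 kb window, near the far end. Replicate 2 had no peak in the window or within 500 kb of it. Of the replicate 1 peaks with a score from 50 to below 75, 700 of 1295 (54.0%) had no partner, and on chromosomes 2 to 19 it was 277 of 581 (47.7%).

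In the Keap1 window a peak was listed in replicate 2 only, at 20939364 to 20939961 on chromosome 9. It was 598 bp wide, scored 82.59 and ranked 1964. Among replicate 2 peaks with a score from 75 to below 100, 379 of 633 (59.9%) had no partner, and on chromosomes 2 to 19 it was 285 of 366 (77.9%). Whether the gene Keap1 lies inside this window or beside it could not be checked without an mm9 annotation, so the peak is given by position and is not assigned to Keap1. The 500 kb on each side of the window held 0 peaks in both lists, and the nearest peak outside was 1.13 Mb beyond the window in replicate 2. The peak at 20939364 was thus the only one in either list from 500 kb before the window to 500 kb after it. The protein-coding genes next to Keap1 in the GRCm38.p6 table are Pde4a and S1pr5.

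In the window of Bach1, the repressor that competes for the same elements, replicate 2 listed a peak at 87713173 to 87713704 on chromosome 16. It was 532 bp wide and scored 153.73, with 25.4% of its list scoring higher, and it ranked 38th of 86 on its chromosome. It was the highest-scoring of the 4 member peaks without a partner. In its score class, from 100 to below 200, 382 of 902 peaks of replicate 2 (42.4%) had no partner, and on chromosomes 2 to 19 it was 301 of 545 (55.2%). Replicate 1 had no peak in the window or within 500 kb of it. The protein-coding genes next to Bach1 in the GRCm38.p6 table are Map3k7cl and Grik1, and those next to Nfe2l2 are Hnrnpa3 and Agps.

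Over all 5 windows, replicate 1 had 3 member peaks, of which 2 had a partner, and replicate 2 had 5, of which 2 did. In the whole lists 66.1% and 50% of peaks had one, and counts of 3 and 5 are too small to be set apart from these shares. No member peak of replicate 1 reached a score of 100, which 33.7% of its list did, and 3 of the 5 of replicate 2 did, against 43.5% of that list. All 8 member peaks were isolated, with fewer than 2 other peaks of their list within 100 kb. Isolated peaks made up 43.4% of the first list and 59.9% of the second, and on chromosomes 2 to 19, where all members lie, 63.0% and 75.02%.

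**Figure D3:**
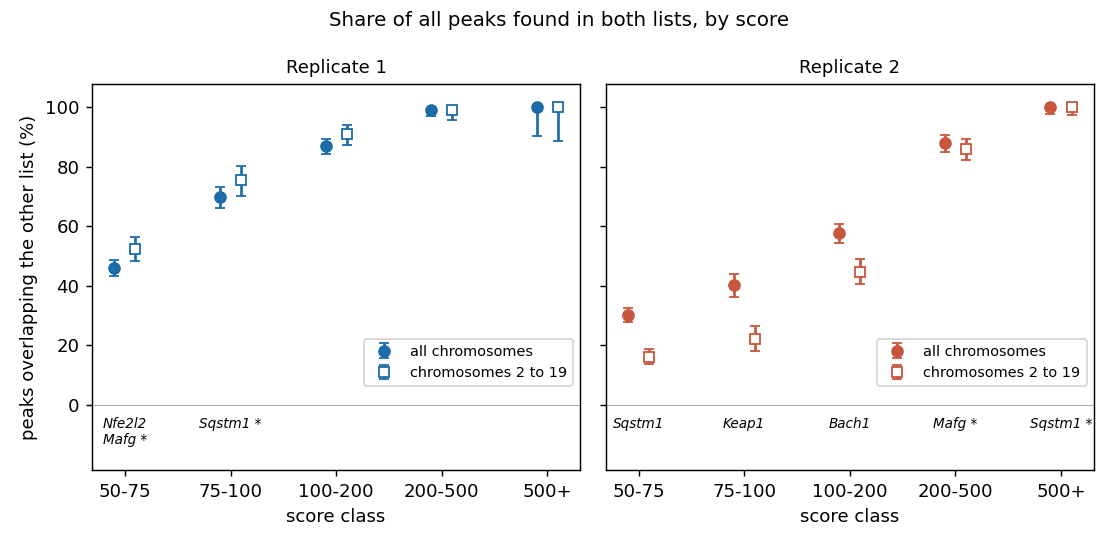
The share of all peaks that overlap a peak of the other list (%) is plotted by score class for each replicate, with 95% Wilson intervals, for all chromosomes (filled) and chromosomes 2 to 19 (open). The gene name of its window stands under the class of each member peak, and an asterisk marks a peak with a partner. In replicate 2 the Mafg and Sqstm1 peaks with a partner fall in the classes where 88.1% and 100% of all peaks had one. The 3 without fall in classes from 30.1 to 57.6%. On chromosomes 2 to 19 these shares were 86.1% and 100%, and from 16.2 to 44.8%.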

How the data were processed

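Nrf2 ChIP-seq peak lists of 2 replicates of C2C12 myotubes were analysed. The mm9 build, MACS 1.4, Bowtie2 and bcl2fastq 2.15.0 are named per the submitters' processing notes. The Bowtie2 version, all roles and settings, and the control used for peak calling were not given in those sources. Each ChIP sample has its own deposited list of peak positions with a score. The deposited score was read as log10 of the p-value that the caller gave, multiplied by 10 with the sign turned, which no header states, and was used only within a list. Positions count from 1.

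Peaks overlapping a window by at least 1 bp were taken, and linked peaks of both lists were joined into shared regions. No test between groups was possible with 1 ChIP group. Shares have 95% Wilson intervals. The code for overlaps and motifs was tested on simulated data. The peaks named are every peak in the windows, which are the members, and, added for context, the nearest outside them within 500 kb and shared regions of like or highest rank. The members and lists were chosen with earlier results of these data known. Distances to gene starts need an mm9 annotation and were not computed. Promoters and gene order came from RefSeq GRCm38.p6. No coordinates were converted. Alternatives were stricter overlap, score minimums, the 1000 highest-scoring peaks, wider windows, leaving out a replicate, isolated peaks only, a looser motif, chromosomes 2 to 19 and 160 kb tiles. Python 3.11.15, SciPy 1.17.1, NumPy 2.4.6 and matplotlib 3.10.9 were used.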

Additional observations from a re-analysis of the deposited data

How the results depend on the processing

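The 2 shared regions, in the Sqstm1 and Mafg windows, were also found with overlap of at least 50% of both peaks, with peak centres within 200 bp and with windows widened by 100 kb on each side. With a score of at least 100 in both lists, or with the 1000 highest-scoring peaks of each list, 0 shared regions and 0 windows with one remained, because the windows kept 0 peaks of replicate 1 and 3 of replicate 2. A minimum score of 75, chosen after seeing the data, left 1 shared region in 1 window and 1 peak of replicate 1. Both shared regions thus rest on replicate 1 peaks with scores below 100. A score of 100 was reached by only 33.7% of the replicate 1 list and 43.5% of the replicate 2 list. How many tiles keep a shared region under these 3 limits was not computed. The counts of 0 and 1 therefore have no background and do not show a weakness particular to these windows. Windows with a peak in either list, 5 in all, numbered 4 without replicate 1 and 3 without replicate 2. On chromosomes 2 to 19, also chosen after seeing the data, the share of peaks with a partner was 71.7% in replicate 1 and 40.8% in replicate 2. Among isolated peaks, the percentage scoring higher than a member peak moved most for the Sqstm1 peak of replicate 1, from 42.9 to 39.2%. The looser motif matched 3 member promoters. Tiles of 160 kb held a shared region in 6.26% of cases. No paired analysis was possible because both ChIP samples belong to a single group. Unknown depth limits any reading of peaks listed in 1 replicate only.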
